A study of Mus musculus with 6 samples.

Results

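GABA-A receptors are chloride channels of 5 subunits that carry most fast inhibition in the brain. Among the genes of this system that the arrays covered, *Gabra6* encodes the alpha6 subunit, *Gabrb2* the beta2 subunit and *Gphn* gephyrin, the scaffold that holds these receptors and glycine receptors at inhibitory synapses. These 3 genes were taken through the platform's annotation as the probe sets that carry one of the symbols alone. They comprised 52 of the 58919 probe sets tested, 12 for *Gabra6*, 14 for *Gabrb2* and 26 for *Gphn*, and no probe set with several symbols named any of them. *Gabra6* and *Gabrb2* lie on chromosome 11 and *Gphn* on chromosome 12.

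A GABA-A receptor usually joins alpha and beta subunits with a gamma or a delta subunit. GABA binds between alpha and beta, and the alpha subunit sets much of the receptor's pharmacology and place. The alpha6 subunit is known almost only from granule cells of the cerebellum and from the cochlear nucleus, where it forms synaptic and extrasynaptic receptors that answer poorly to classical benzodiazepines. The beta2 subunit is widespread in the brain and is a partner in its most common receptor type. Gephyrin binds receptor subunits and the cytoskeleton, and outside synapses the same protein completes the molybdenum cofactor.

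Total RNA of mouse brain was labelled with biotin and read on 1-colour exon-level arrays, with 3 knockout arrays of the genotype APPPS1-FVBxABCC1 and 3 control arrays of the genotype APPPS1-FVB. Both groups thus carry the APPPS1 transgenes, which are expressed under a neuronal *Thy1* promoter and lead to amyloid plaques, on the FVB strain, and no group without the transgenes was analysed here. The knockout arrays add the loss of *Abcc1*, an exporter of glutathione conjugates. Age, sex and the dissected region were not stated in the labels, nor whether an array stands for 1 animal, so p-values measure the spread between these samples, which may be technical. The median log2 signal per array was 7.04 to 7.09 and pairs of arrays correlated between 0.984 and 0.990. Nearly all of the 5017 genes with probe sets here, 4918, lie on 5 chromosomes, so *Abcc1* and most GABA-A receptor subunit genes are not analysed here.

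Before the comparison of genotypes, 2 arrays stood apart in *Gabra6*, knockout 2 and control 3. The mean log2 signal over its 12 probe sets was 3.53, 5.74 and 3.69 in knockout 1, knockout 2 and knockout 3, against 3.87, 3.82 and 6.70 in control 1, control 2 and control 3. Thus 1 array of each genotype was high, the other 4 were low and close together, and the groups overlapped. The 4 low means lay below the median signal of the features treated as array controls, 4.09 to 4.27 on those arrays. They are read as not clearly above background, although that median is no measured background. At probe sets 10385313, 10385319 and 10385322 each of the 4 low arrays lay above its median. At 10385319 knockouts 1 and 3 had 4.44 and 4.70, and controls 1 and 2 had 4.97 and 4.85. The 6 gene means spanned 3.17 on the log2 scale, which is no fold change in RNA. The SD over the 6 arrays was 1.33, the largest of all 5017 genes, where the median gene had 0.087 and the next 1.10. Without regard to genotype, the lower of the 2 high arrays lay 1.87 above the highest of the other 4, the largest such gap among all genes. These 2 arrays were picked from the *Gabra6* values themselves, so the gap is a description with no test.

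The sequence upstream of *Gabra6* is shown because this gene had the widest spread of all. The window holds the 250 bases before its transcription start in RefSeq (GRCm38.p6, chr11:42321073-42321322, minus strand), written 5′ to 3′, with capitals marking the motif TTGGC, the core of a nuclear factor I site, read on either strand. Nuclear factor I proteins are known to bind this promoter in granule neurons.
Gabra6: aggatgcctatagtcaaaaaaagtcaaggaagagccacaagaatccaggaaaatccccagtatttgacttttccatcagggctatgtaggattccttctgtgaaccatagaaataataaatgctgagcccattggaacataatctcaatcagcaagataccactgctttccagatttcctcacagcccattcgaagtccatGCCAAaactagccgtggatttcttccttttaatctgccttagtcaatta
The motif was found 1 time, as GCCAA on the strand shown, and 44 bases separate it from the start. A match to these 5 letters occurs in 41.5% of the 32851 windows of this length in the table, so it is given as a description. Whether it is a binding site was not tested, and no array value was tested against it.

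The pattern ran through the gene rather than through single exons. Control 3 had the highest signal at 12 of 12 *Gabra6* probe sets and knockout 2 the second highest at 11 of 12. At probe set 10385317 the log2 signals were 2.49, 6.13 and 2.43 in knockouts 1 to 3, against 2.95, 2.60 and 7.26 in controls 1 to 3. At 10385316 they were 2.96, 6.74 and 3.10 in the knockouts, against 3.23, 3.92 and 7.46 in the controls. These 2 probe sets had the widest gaps between the 2 high arrays and the rest, 3.18 and 2.82. The gap was 0.08 at 10385312, and at 10385321 it was -0.01, because knockout 3, at 4.08, reached the level of knockout 2, at 4.07. Among the 4 low arrays, knockouts 1 and 3 both lay below controls 1 and 2 at 5 of 12 probe sets and above them at 0 of 12. The widest such split was at 10385318, with 3.04 and 3.05 in the knockouts, against 4.39 and 4.65 in the controls. The share of all probe sets with such a split was not counted, and the 4 arrays were picked from the *Gabra6* values. The 12 probe sets share their arrays, so the count gives no direction between the genotypes.

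**Figure D1:**
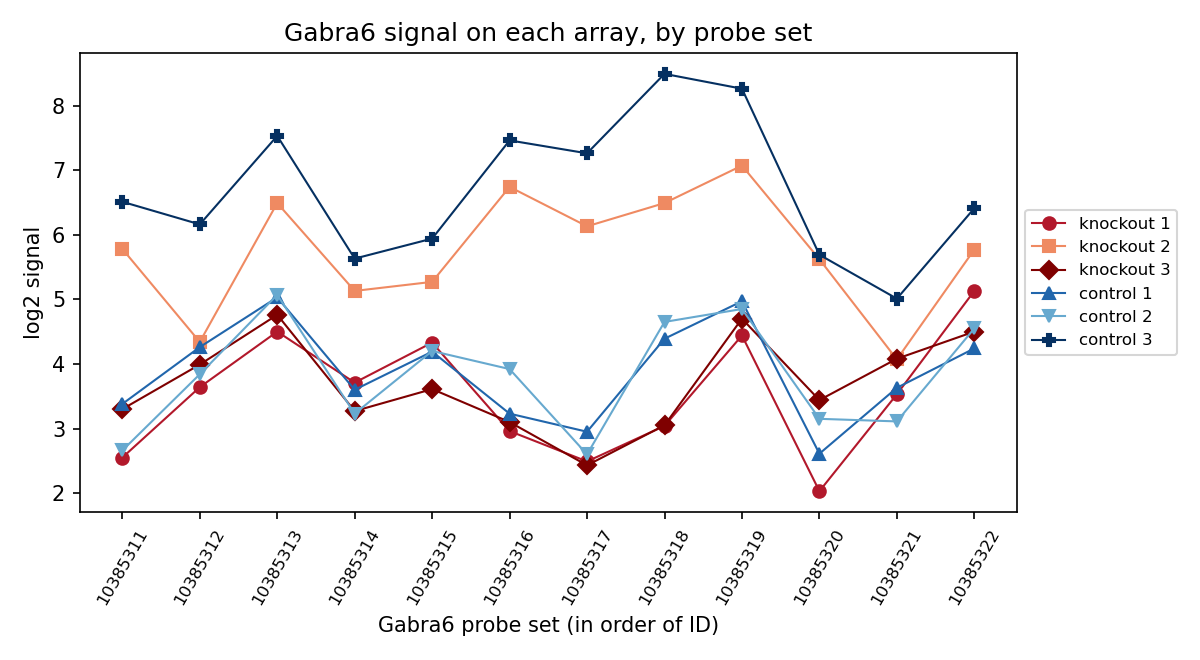
Log2 signal (vertical axis) of each of the 12 Gabra6 probe sets (horizontal axis, in order of ID) on each array, 1 line and marker per array. Control 3 is highest at every probe set and knockout 2 second at 11 of 12, while the other 4 arrays run together below them.

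Knockout minus control for *Gabra6* was a log2 difference of -0.48 with a 95% interval from -2.46 to 1.51. The knockouts averaged 4.32 ± 1.23 and the controls 4.80 ± 1.65 (SD, n = 3 each), and the limma adjusted p was 0.837. With 1 array deciding the sign, no direction can be given: the difference was 0.47 without control 3 and -1.19 without knockout 2. With both of these arrays left out, an alternative chosen after seeing the data, it was -0.24 (95% interval -0.42 to -0.05, limma adjusted p = 0.512). All 4 remaining means lay below the control-feature medians, so that difference gives no direction for the RNA. At the brightest probe set, 10385319, the log2 difference was -0.62 (SE 1.10, limma adjusted p = 0.882). Without both arrays that probe set had -0.42 (95% interval -0.73 to -0.11, limma adjusted p = 0.641). Its 4 remaining signals, 4.44 to 4.97, lay above the control-feature medians, and the difference did not pass the threshold. Both arrays were picked from the *Gabra6* values, and leaving them out narrows the spread within the groups. The intervals without them are thus too narrow and give no direction.

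The same 2 arrays were the highest for *Fat2*, an atypical cadherin gene known from cerebellar granule cells. Its mean log2 signal over 24 probe sets was 4.77, 5.44 and 4.97 in knockouts 1 to 3, against 4.998, 5.07 and 5.73 in controls 1 to 3. The gap between the lower of the 2 high arrays and the rest was 0.37, the second largest among all genes after *Gabra6*. By probe set, 12 of 24 had knockout 2 and control 3 above the other 4 arrays. By gene mean, 7.22% of all genes had these 2 arrays on top, and 5.84% had them at the bottom. The share over all probe sets was not counted, so the 12 of 24 has no like background.

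Other genes listed for cerebellar granule cells did not share the pattern. Of 28 genes listed, 6 were measured, and *Fat2* was the 1 with both arrays on top. *Grin2c*, the NMDA receptor subunit of mature granule cells, had gene means of 7.59, 7.45 and 7.46 in the knockouts, against 7.47, 7.40 and 7.53 in the controls. *Etv1*, a transcription factor of maturing granule cells, had 9.52, 9.76 and 9.57 in the knockouts, against 9.46, 9.50 and 9.54 in the controls, with knockout 2 highest and control 3 below knockout 3. *Meis1*, a homeobox gene, ranged over 0.38 on the log2 scale across arrays, *Diras2*, a small GTPase gene, over 0.27, and *Stxbp6*, a regulator of vesicle fusion, over 0.26, each with control 3 lowest. These genes are expressed in other brain regions too. The mean level over the 6 genes was 7.70, 7.88 and 7.71 in knockouts 1 to 3, against 7.69, 7.73 and 7.76 in controls 1 to 3. This order rests on *Fat2*: over the other 5 genes the mean was 8.28, 8.37 and 8.25 in the knockouts, against 8.22, 8.26 and 8.16 in the controls, with control 3 the lowest array.

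**Figure D2:**
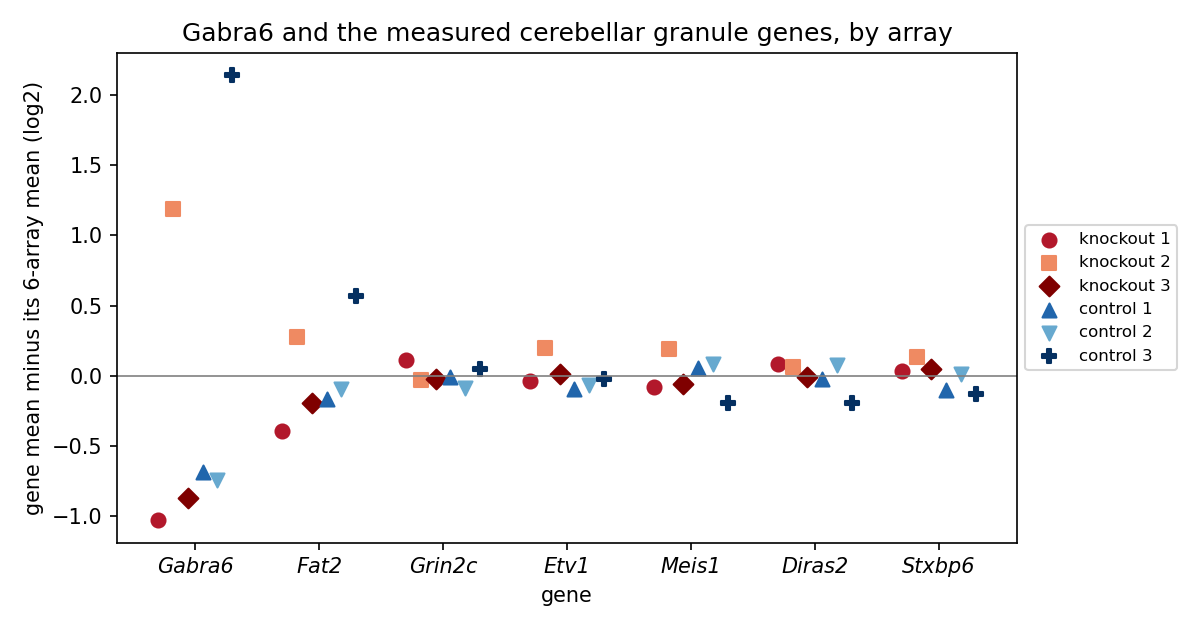
Gene mean on each array minus the gene's mean over the 6 arrays (vertical axis, log2) for Gabra6 and the 6 measured genes of the cerebellar granule list (horizontal axis), 1 marker per array. Knockout 2 and control 3 lie above the other 4 arrays for Gabra6 and Fat2 and for no other gene shown.

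Neither the list of other cerebellar genes nor those of other brain regions gave such a split in the list means. The Purkinje and other cerebellum list, with 3 of 19 genes measured, averaged 8.43, 8.40 and 8.44 in the knockouts, against 8.37, 8.38 and 8.38 in the controls. The forebrain list (8 of 25 measured) averaged 7.98, 7.999 and 7.95 in the knockouts, against 7.85, 8.02 and 7.99 in the controls, and the thalamus and hindbrain list (6 of 13) ran from 5.15 to 5.20 in the knockouts and from 5.18 to 5.24 in the controls. *Neurod2*, a transcription factor gene of that forebrain list which granule cells also express, was named after its values were seen. It had 5.77, 6.06 and 5.93 in the knockouts, against 5.89, 5.997 and 6.45 in the controls. Both arrays were on top by a gap of 0.06, and at 1 of its 3 probe sets. It was the 1 gene of the 8 measured on that list with both on top, against 7.22% of all genes. Knockout 2 was the lowest array in 2 of 6 measured glial genes, *Cd68* and *Gfap*, and not in *Gja1*, *Sox9*, *S100b* or *Cnp*. *Cd68*, a lysosomal gene of microglia, was at 6.68 there, against 7.54 and 7.39 in the other knockouts and 7.47 to 7.71 in the controls. *Gfap*, of astrocytes, was lowest in knockout 2, at 9.02, and highest in control 3, at 10.42. In whole tissue RNA, fewer cells of a type and less RNA per cell cannot be told apart, and the part of tissue content in the *Gabra6* values was not tested.

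*Gabrb2* was nearly level across arrays. Its mean log2 signal over 14 probe sets was 10.64, 10.71 and 10.69 in knockouts 1 to 3, against 10.60, 10.66 and 10.55 in controls 1 to 3. Knockout 1 lay just below control 2, so the groups overlapped, and the 2 arrays high in *Gabra6* were the highest and the lowest here. The log2 difference was 0.08 (SE 0.05, 95% interval -0.04 to 0.19, limma adjusted p = 0.518), with 10.68 ± 0.03 in the knockouts and 10.60 ± 0.05 in the controls (SD, n = 3 each). Without knockout 2 and control 3 the difference was 0.04 (limma adjusted p = 0.832).

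By probe set, 13 of 14 *Gabrb2* differences were above 0, from -0.03 to 0.21. The median difference over all 58919 probe sets was 0.01, and -0.01 after quantile normalization. At the brightest *Gabrb2* probe set, 10375253, the log2 difference was 0.04 (limma adjusted p = 0.851). Of the 14, 0 passed at a limma adjusted p below 0.05, where 0.00509% of all probe sets did. At a raw p below 0.05 there was 1 of the 52, against 7.69% of all probe sets. That 1 was 10375247, with log2 signals of 9.95, 9.92 and 9.92 in the knockouts, against 9.65, 9.75 and 9.77 in the controls. All knockouts lay above all controls there, and the log2 difference was 0.21 (95% interval 0.02 to 0.39, limma adjusted p = 0.621). The neighbouring ID 10375246 had 8.34, 8.55 and 8.46 in the knockouts, against 8.27, 8.34 and 8.18 in the controls, so the groups touched at 8.34. At 10375251 the knockouts had 11.31, 11.27 and 11.25 and the controls 11.17, 11.22 and 11.12, and at 10375252 the knockouts had 11.50, 11.50 and 11.56 and the controls 11.46, 11.49 and 11.38. In all, the knockouts lay wholly above the controls at 3 of 52 probe sets, each of *Gabrb2*, against 7.94% of all probe sets, and wholly below at 1 of 52, against 5.52%. The probe sets of a gene share their arrays and are not replicates of each other.

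No difference between the genotypes passed the test for *Gphn*. Its mean log2 signal over 26 probe sets was 9.52, 9.52 and 9.39 in knockouts 1 to 3, against 9.46, 9.50 and 9.47 in controls 1 to 3. Knockout 3 was the lowest array and the other 5 lay within a narrow band. The log2 difference was 0.00 (SE 0.05, limma adjusted p = 0.990), and its 95% interval ran from -0.12 to 0.13. By probe set, 15 of 26 differences were above 0, 10 below and 1 at 0, between -0.30 and 0.27. At 10396759 the knockouts had 11.11, 11.05 and 11.06 and the controls 11.16, 11.17 and 11.23. All knockouts lay below all controls there, and the log2 difference of the group means was -0.11 (limma adjusted p = 0.737).

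Single *Gphn* probe sets varied between arrays more than the gene did. At 10396758 the log2 signals were 7.85, 8.10 and 6.52 in the knockouts, against 7.68, 7.90 and 7.80 in the controls, and at 10396748 they were 7.54, 7.54 and 6.62 in the knockouts, against 7.39, 7.38 and 7.22 in the controls. Knockout 3 was the lowest array at both, as it was for the gene mean. At 10396741, the lowest ID of the gene, they were 9.91, 9.07 and 9.80 in the knockouts, against 9.69, 9.57 and 8.96 in the controls. There the 2 lowest arrays were knockout 2 and control 3, the 2 highest in *Gabra6*, and they lay 0.50 below the other 4. This held at 1 of 26 *Gphn* probe sets, while at 10396761 the same arrays were the 2 highest, at 8.93 in knockout 2 and 8.86 in control 3. Gephyrin messages are known to be spliced in several ways, and the deposited table does not say which exon a probe set reads.

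**Figure D3:**
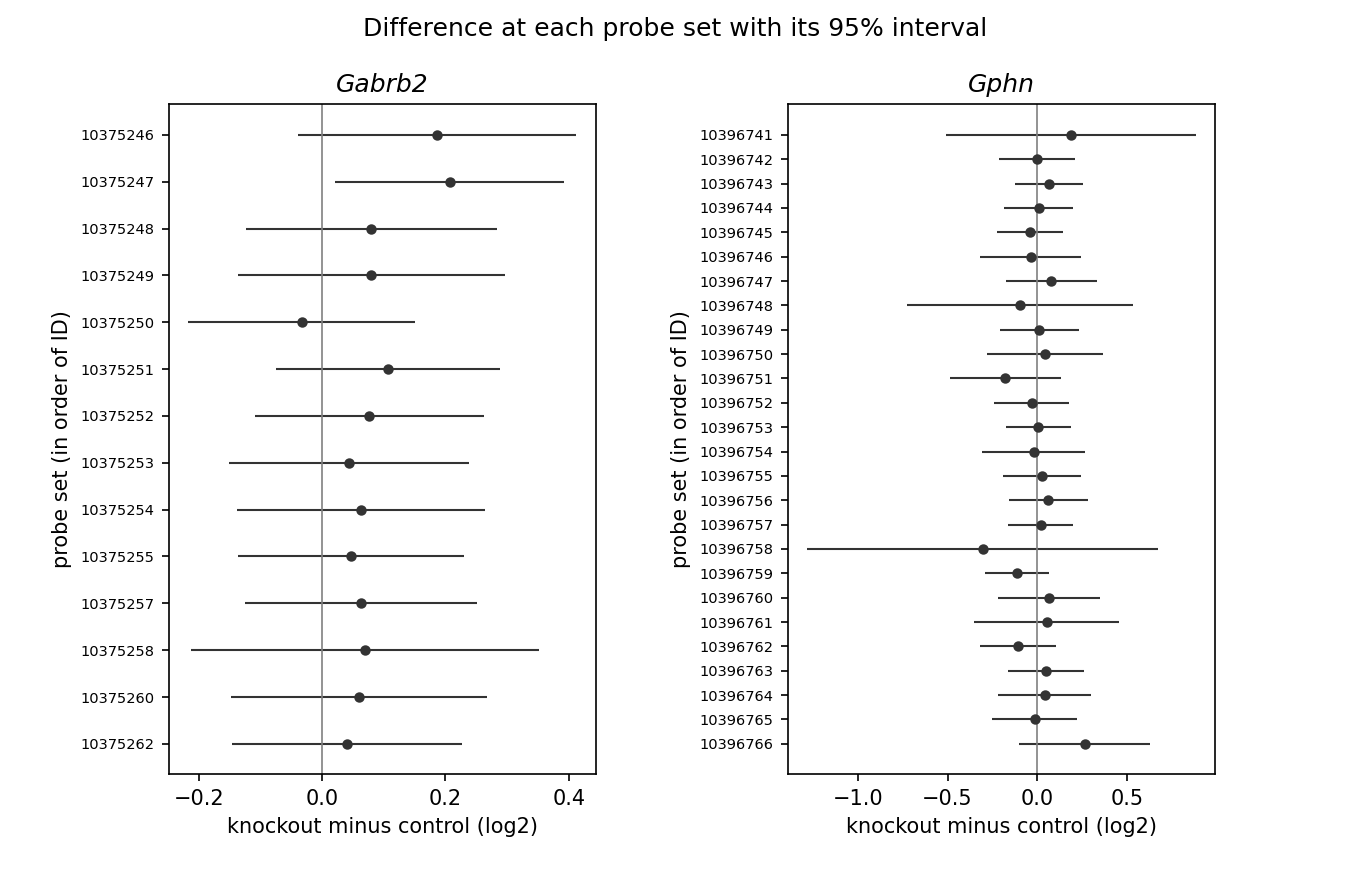
Log2 difference, knockout minus control, at each probe set of Gabrb2 (left) and Gphn (right) with its 95% interval, in order of ID; the horizontal scales differ between the panels. At Gabrb2 13 of 14 points lie above 0, where the median over all probe sets was 0.01. The interval of 10375247 excludes 0 before adjustment, while the points of Gphn lie on both sides of 0.

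Exon usage was compared by setting the difference at a probe set against those of the gene's other probe sets. With limma's diffSplice, 0 of 52 probe sets of the 3 genes passed, where 0.475% of all 53097 probe sets did. That background may be inflated, since diffSplice made many false calls on simulated data where probe sets of a gene differed in variance. The smallest raw p was at 10375247 of *Gabrb2*, which lay 0.14 above the rest of its gene (diffSplice adjusted p = 0.837). Next came 10396758 of *Gphn*, which lay -0.32 from the rest (diffSplice adjusted p = 0.989). With a variance for each probe set, an alternative chosen after seeing the data, 0 of 53097 passed, 0 of 52 of these genes, and 2820 of the 53097 had a raw p below 0.05. By that fit 10385318 of *Gabra6* lay -1.28 from the rest of its gene (limma adjusted p = 0.930).

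Few other GABA genes were measured. *Gabrp*, the pi subunit gene known mainly from tissues outside the brain, was the 1 of 17 other GABA-A subunit genes with probe sets. It had a mean log2 signal of 3.97, 3.97 and 4.01 in the knockouts, against 4.03, 3.98 and 4.13 in the controls, with a difference of -0.07 (SE 0.05, limma adjusted p = 0.610). These signals lay close to the control-feature medians. Of 13 genes of GABA metabolism and transport, *Aldh5a1*, the enzyme for the last step of GABA breakdown, was the 1 measured, with 8.77, 8.69 and 8.72 in the knockouts, against 8.69, 8.79 and 8.68 in the controls. Its difference was 0.01 (limma adjusted p = 0.960).

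Among organisers of inhibitory synapses and proteins that move GABA-A receptors, 13 of 36 listed genes were measured, 8 higher and 5 lower in the knockouts, and 0 passed at a limma adjusted p below 0.05 (background 0% of gene means). At a raw p below 0.05, 399 of the 5017 gene means were higher in the knockouts and 307 lower. The median log2 difference was 0.02, against 0.00 over all 5017 genes. After quantile normalization 6 of 13 were higher, with a median of -0.01. The groups did not overlap in 5 of the 13, against 20.2% of all genes, 3 with the knockouts above (11.4% of all genes) and 2 below (8.85%).

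*Nlgn2*, the neuroligin of inhibitory synapses that recruits gephyrin, had gene means of 9.30, 9.18 and 9.22 in the knockouts, against 9.01, 9.11 and 8.99 in the controls. The knockouts lay above the controls, with a log2 difference of 0.20 (SE 0.06, 95% interval 0.06 to 0.33, limma adjusted p = 0.236), and 0.18 at the brightest probe set. *Dynll2*, a dynein light chain that binds gephyrin, had 10.37, 10.28 and 10.33 in the knockouts, against 10.19, 10.25 and 10.15 in the controls, a difference of 0.13 (limma adjusted p = 0.338). *Nrxn3*, a presynaptic partner of neuroligins, had 10.07, 10.10 and 10.08 in the knockouts, against 9.90, 10.06 and 9.98 in the controls, a difference of 0.10 (limma adjusted p = 0.443).

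On the lower side, *Mocs2*, a synthase of the molybdenum cofactor pathway that gephyrin completes, had 7.56, 7.64 and 7.64 in the knockouts, against 7.82, 7.78 and 7.91 in the controls. Its log2 difference was -0.22 (SE 0.05, 95% interval -0.35 to -0.10, limma adjusted p = 0.215), and -0.20 without knockout 2 and control 3. *Gabarap*, which binds the gamma2 subunit and aids receptor traffic, had 10.95, 11.02 and 11.01 in the knockouts, against 11.08, 11.05 and 11.11 in the controls, a difference of -0.08 (limma adjusted p = 0.453) and -0.04 at the brightest probe set. The other 8 genes overlapped between the groups. They were *Enah* at 0.07, *Trak2* at 0.06, *Kif5a* at 0.05, *Hap1* and *Nsf* both at 0.02, *Plcl1* and *Ubqln1* both at -0.03 and *Pfn1* at -0.09. *Enah* and *Pfn1* act on actin and bind gephyrin, *Trak2*, *Kif5a* and *Hap1* serve transport along microtubules, *Nsf* drives membrane fusion, *Plcl1* binds GABARAP and receptor beta subunits, and *Ubqln1* slows the breakdown of receptor subunits.

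**Figure D4:**
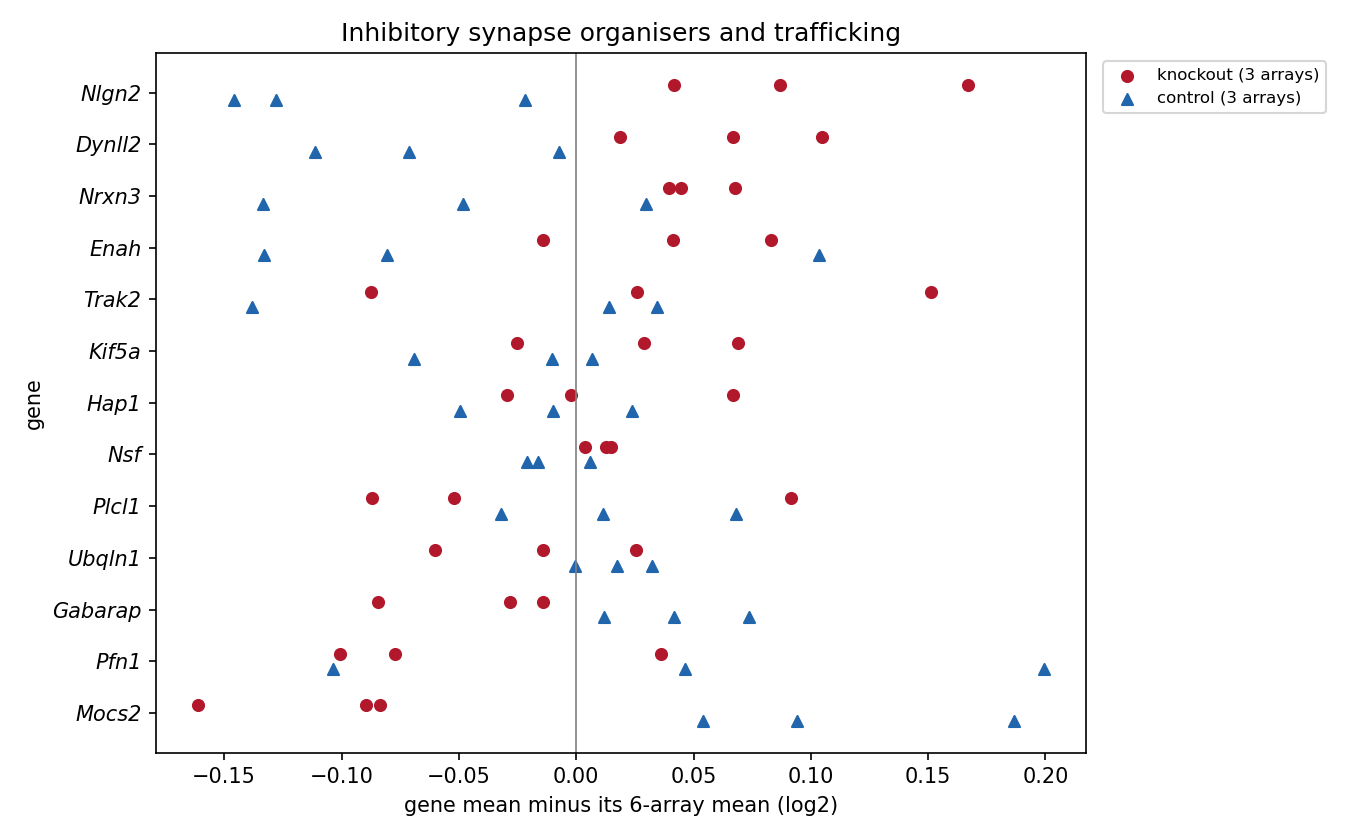
Gene mean on each array minus the gene's mean over the 6 arrays (horizontal axis, log2) for the 13 measured genes of the inhibitory synapse list, knockouts as circles above controls as triangles in each row, sorted by the difference. The groups are separate for Nlgn2, Dynll2, Nrxn3, Gabarap and Mocs2 and overlap for the other 8 genes.

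Markers of inhibitory neurons were represented by 4 of 20 listed genes, 3 higher and 1 lower, 0 passed, with a median log2 difference of 0.06. The differences ran from -0.22 to 0.10, so the 1 lower gene moved the furthest. *Erbb4*, the neuregulin receptor of many interneurons, had a difference of 0.10 (limma adjusted p = 0.548) and *Kcnc2*, a potassium channel of fast-spiking cells, 0.06 (limma adjusted p = 0.670). Without knockout 2 and control 3 the median of the list was -0.02. Of the cerebellar granule list, 5 of 6 were higher and 0 passed (median 0.06), and of the Purkinje list 1 of 3 was higher and 0 passed (median -0.02), with *Aldoc* at -0.02 and *Kitl*, a stem cell factor gene, at 0.29 (limma adjusted p = 0.215). Of the forebrain list 5 of 8 were higher and 0 passed (median 0.06), with *Mef2c* at 0.11 and *Bcl11b* at 0.16. Of the thalamus and hindbrain list 1 of 6 was higher and 0 passed (median -0.04), with *Rgs16* at -0.02 and *Hoxb3* at -0.03. Of 4 measured astrocyte genes 3 were lower and 0 passed (median -0.18), with *Gja1* at -0.15 and *Gfap* at -0.48. The lists of oligodendrocytes, microglia, endothelium and red cells had 1 measured gene each, *Cnp* at -0.05, *Cd68* at -0.41, *Pecam1* at 0.06 and *Slc4a1* at -0.36, and 0 passed.

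The genes most like each member over the 6 arrays were named by the Pearson correlation of gene means, among 3884 other genes with at least 4 probe sets. For *Gabra6* they were *Tmx1* (r = 0.992), *Nqo2* (r = 0.978), *Fat2* (r = 0.977), *Zfp277* (r = 0.976) and *Trpv2* (r = 0.969). Of these, *Fat2* ranged over 0.96 on the log2 scale and the other 4 over 0.12 to 0.26, against 3.17 for *Gabra6* itself. For *Gabrb2* they were *Bmpr2* (r = 0.999), *Phf12* (r = 0.986), *Pcp4l1* (r = 0.984), *Srgap1* (r = 0.976) and *Actr2* (r = 0.974). *Bmpr2* had 10.27, 10.38 and 10.35 in the knockouts, against 10.19, 10.30 and 10.10 in the controls. For *Gphn* they were *Ankzf1* (r = 0.973), *Tex2* (r = 0.967), *Hmga1* (r = 0.967), *Ctc1* (r = 0.960) and *Actr3* (r = 0.953). These are the highest of 3884 correlations over n = 6 arrays that share their labelling and scale, so they are given as a description.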

How the data were processed

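The deposited table holds log2 signals per exon probe set, with 2 decimals, for 6 arrays. Per the submitters' processing notes the values come from MAS5; its version, the background correction, the common scale and the genome build are not given in the sources used here. Of 65535 entries, 6616 had lower IDs than any probe set with a symbol; they were treated as array controls and dropped. Of the 58919 tested, 53644 had 1 symbol, 877 several and 4398 none; of 5032 symbols 4321 were current in RefSeq GRCm38.p6, 698 were updated and 13 kept.

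Knockout minus control was fitted without further normalization with limma 3.58.1 (lmFit, eBayes, R 4.3.3), with two-sided p-values adjusted by the Benjamini-Hochberg method across every probe set, or across 5017 genes for the mean and for the brightest probe set of each gene, at a threshold of 0.05. diffSplice compared probe sets within genes; it pools the variance of a gene's probe sets, and on simulated data most of its calls were false, so its calls over the whole table are not relied on and a fit with a variance per probe set was added. The limma fits were also tested on simulated data. All probe sets of the 3 genes and every measured gene of the lists for GABA-A subunits, GABA metabolism, inhibitory synapses and cerebellar granule cells could be named, and from other lists the 2 with the highest mean signal; of the probe sets, those that stood out were described singly and the others by range and count. The members and lists were chosen with earlier results of these data known. The number of arrays limits the precision.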

Additional observations from a re-analysis of the deposited data

Results flagged for a closer look

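Probe set 10375256 carries no symbol, and its ID lies among those of *Gabrb2*, so it entered none of the values for that gene. It was higher in every knockout than in every control, at 5.52, 5.47 and 5.86 in knockouts 1 to 3, against 4.54, 5.25 and 4.76 in controls 1 to 3. The log2 difference was 0.77 (SE 0.21), with a limma adjusted p of 0.560 over all probe sets, so it did not pass the threshold. It was singled out because every knockout lay above every control there, while it lay outside the values for *Gabrb2*. Of all probe sets, 7.94% had every knockout above every control. The array has no symbol for it and whether it reads the same transcript was not tested.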

How the results depend on the processing

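With limma, the count of called probe sets over the whole table, 3, was 6 after quantile normalization, 7 after median centring, 7 with array weights, 7 at an adjusted p below 0.1, 19 with the dimmest probe sets left out, 21 with trend and robust moderation, 0 with the replicate block and 0 to 4 without 1 array. It was 0 without both knockout 2 and control 3. None of the 52 probe sets of *Gabra6*, *Gabrb2* and *Gphn* and none of the gene means passed under any of these settings. Leaving out the dimmest probe sets removed all 12 probe sets of *Gabra6*, so that setting gave it no value. For *Gabra6* the gene mean ranged from -1.19 to 0.47 when 1 array was left out, with the sign turned without control 3, and the brightest probe set from -1.46 to 0.49. The *Gphn* gene mean, 0.00, was -0.028 after quantile normalization, -0.0177 after median centring, -0.0221 without both arrays and -0.021 to 0.0458 without 1 array. It was 0.10 by the median of its probe sets. The *Gabrb2* gene mean difference stayed between 0.04 and 0.11 in 14 alternatives. With the replicate block its limma adjusted p was 0.565. At the brightest *Gabrb2* probe set the difference lay between 0.0033 and 0.0883 in 12 alternatives. Same-numbered samples did not deviate together (correlations 0.02, -0.08 and -0.06), so the numbers were not taken as pairs, and the block changed no call among the 3 genes. List medians that moved beyond 1 SD were those of GABA metabolism (-0.07 by brightest probe set), inhibitory synapses (-0.0079 after quantile normalization, 0.0036 after median centring), interneurons (-0.0153 without both arrays), thalamus and hindbrain (-0.10 by brightest probe set, and -0.0663 to -0.0269 without 1 array), astrocytes (-0.0808 without both arrays) and red cells (0.24 by brightest probe set). The cause was not tested. Dim signals such as those of *Gabra6* on 4 arrays limit what can be read there.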
